A study of Mus musculus with 4 samples.

Results

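Cells carrying the granulocyte regulator Cebpe with little Elane were described in a mouse model of acute myeloid leukaemia by single-cell RNA sequencing. A cell belonged to this set where at most 10% of its unique molecular identifiers (UMIs, 1 per captured transcript) were mitochondrial, at least 3 UMIs came from Cebpe, less than 1% of its UMIs came from Elane, and S100a8, S100a9, Ngp and Camp together made up less than 1%. The rule found 457 cells among 5456 that passed the mitochondrial limit, of 5664 barcodes in the table. The set is thus defined by measured counts of 6 genes, and those genes are described here but tested nowhere. No cell type name is given to it.

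The cells were GFP-positive, sorted from marrow of crista, femur and tibia of C57BL6 mice aged 11 weeks. All groups shared the same construction: c-Kit+ marrow cells of Hif-1alphaLox/Lox; CreERT2 mice, in which tamoxifen triggers Cre to delete the floxed gene, were given a retrovirus with the fusion oncogene MLL-AF9, grown as primary leukaemias in wild type mice and transplanted again. Recipients received 1 mg tamoxifen or vehicle for 5 days starting at day 10, and then either PBS or chemotherapy, in which cytarabine (100 mg/kg) was given on 5 days and doxorubicin (3 mg/kg) on 3. Marrow was collected 3 days after the last treatment. The 4 samples were Hif-1a wt with PBS, Hif-1a KO with PBS, Hif-1a wt with chemotherapy and Hif-1a KO with chemotherapy, 1 of each. Barcodes end in a suffix from 1 to 4 that the sources used here do not tie to a sample, so genotype and treatment were not compared. Values are given by suffix, a few shares and counts of cells also over all 4 together; they describe these libraries, and there is no replicate check and no p-value.

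Cebpe encodes C/EBP-epsilon, a transcription factor of the C/EBP family that acts in the passage from promyelocyte to myelocyte and is required for the secondary granules of neutrophils and for the maturation of eosinophils. Promyelocytes first fill primary (azurophil) granules with myeloperoxidase (Mpo) and with serine proteases such as neutrophil elastase (Elane), proteinase 3 (Prtn3) and cathepsin G (Ctsg). Later stages switch to secondary and tertiary granule genes such as Ltf, Camp and Ngp and to the cytosolic proteins S100a8 and S100a9. MLL-AF9 leukaemias hold cells at several points between progenitor, granulocyte and monocyte programmes.

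The promoters of 4 genes on which the description turns are shown first. Elane defines the set from above, Nkg7 was proposed as a marker of it, and Siglecf and Chst13 had the highest ratios to other cells after Prg3 among the genes named from the higher ones. Each sequence runs 5′ to 3′ on the gene's strand up to the base before the first annotated start, from RefSeq in GRCm38.p6, and capitals mark a match to GAGGAA or its reverse complement TTCCTC, the core that PU.1 binds.
Elane, chr10:79886062-79886246, plus strand: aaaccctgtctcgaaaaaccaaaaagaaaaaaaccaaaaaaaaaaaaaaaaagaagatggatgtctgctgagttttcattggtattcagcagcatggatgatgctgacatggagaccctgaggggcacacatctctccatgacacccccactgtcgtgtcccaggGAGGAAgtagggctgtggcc
Nkg7, chr7:43436888-43437072, plus strand: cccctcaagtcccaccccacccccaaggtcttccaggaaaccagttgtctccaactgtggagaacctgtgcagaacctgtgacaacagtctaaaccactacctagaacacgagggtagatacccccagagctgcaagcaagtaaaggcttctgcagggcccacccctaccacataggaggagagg
Siglecf, chr7:43351091-43351340, plus strand: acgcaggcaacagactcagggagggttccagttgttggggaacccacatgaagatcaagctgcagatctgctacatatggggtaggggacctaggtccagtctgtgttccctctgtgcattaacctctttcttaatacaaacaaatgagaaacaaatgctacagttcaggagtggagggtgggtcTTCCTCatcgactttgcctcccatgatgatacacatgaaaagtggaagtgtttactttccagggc
Chst13, chr6:90325186-90325435, minus strand: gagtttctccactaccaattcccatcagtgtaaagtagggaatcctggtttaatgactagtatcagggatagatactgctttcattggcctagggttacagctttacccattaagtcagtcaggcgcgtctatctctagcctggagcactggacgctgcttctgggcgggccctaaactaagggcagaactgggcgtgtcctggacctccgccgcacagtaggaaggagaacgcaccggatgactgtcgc
Both strands were searched for TTGCNNAA (C/EBP), GAGGAA (PU.1) and TAACNG (MYB), none of which overlapped in the stretches shown. Elane and Siglecf each held 1 PU.1 match there and Nkg7 and Chst13 held no match to any of the 3. Counts for comparison were made in full windows of 300 bases around the start, which are longer than the stretches shown. Of 32851 such windows, 10.8% held the C/EBP letters, 28.3% the PU.1 letters and 23.3% the MYB letters. A match describes letters in a window and does not show binding.

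The cells made up a larger share of suffixes 1 and 2 than of suffixes 3 and 4. In suffix 1 they were 127 of 1174 kept cells (10.8%, exact binomial 95% interval 9.10 to 12.7), and in suffix 2 they were 155 of 1251 (12.4%, 10.6 to 14.3). In suffix 3 they were 92 of 1625 (5.66%, 4.59 to 6.90), and in suffix 4 they were 83 of 1406 (5.90%, 4.73 to 7.27). The intervals of suffixes 1 and 2 lie above those of suffixes 3 and 4 and cover counting error only. Other kept cells were deeper in suffixes 1 and 2 (medians of 6087 and 6433 UMIs) than in suffixes 3 and 4 (5306 and 5257). Cells with 1% or more of secondary granule UMIs, which the rule leaves out, were 1.02, 1.68, 9.78 and 7.89% of kept cells. The part of depth and of this limit in the gap between suffixes was not tested. The remaining cells with 3 or more Cebpe UMIs either had 1% or more Elane (54, 95, 21 and 15 cells in suffixes 1 to 4) or belonged to the cells with 1% or more of secondary granule UMIs. Of all cells with 3 or more Cebpe UMIs, the low-Elane set was 67.6% in suffix 1, 58.5% in suffix 2, 45.1% in suffix 3 and 51.6% in suffix 4. No barcode over the mitochondrial limit had 3 Cebpe UMIs (0 of 208, which allows a share of up to 1.44%), and 13 had at least 1. These barcodes were shallow, with a median of 1849 UMIs against 5700 in kept cells outside the set. The part of depth in this count was not tested.

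**Figure D1:**
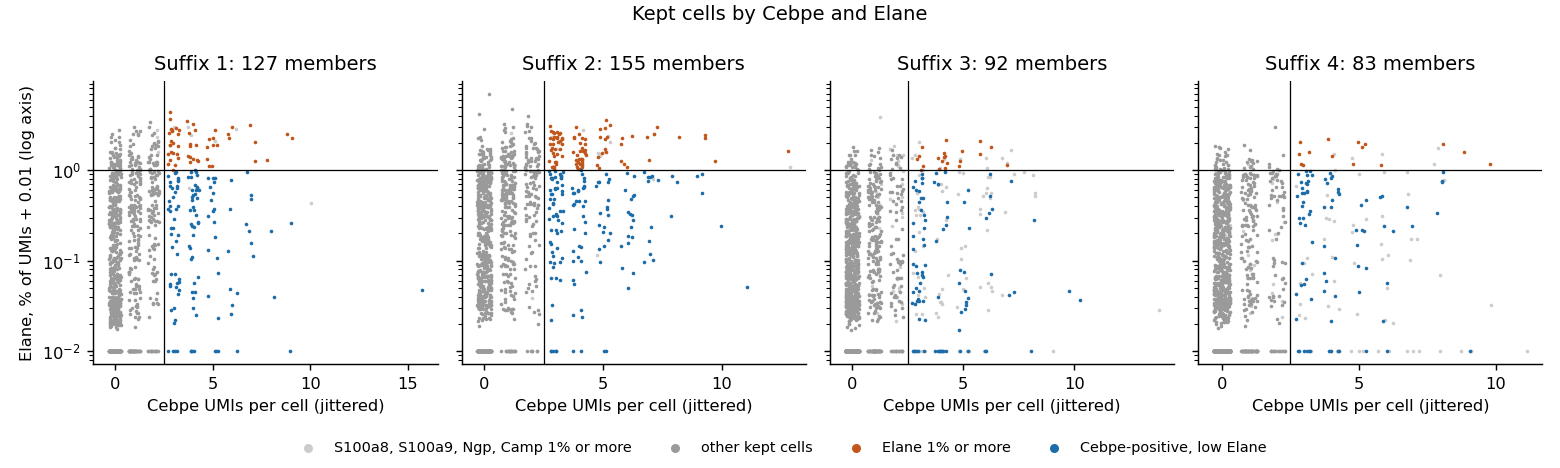
Each point is 1 kept cell of the named suffix, with Cebpe UMIs on the x axis (spread sideways for visibility) and the share of UMIs from Elane plus 0.01 on a log y axis. Lines mark 3 Cebpe UMIs and 1% Elane, and blue cells are the 457 described here, which lie right of the vertical line and under the horizontal one without a gap at either line.

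The cut-offs pass through continuous distributions. Within the set the median was 4 Cebpe UMIs per cell in all suffixes together with a range from 3 to 16, and 187 cells sat exactly on the minimum of 3. Levels are given in CPM (the gene's UMIs scaled to a common total). In the 187 cells Mpo stood at 2449, 2020, 585 and 830 CPM in suffixes 1 to 4, and in the 316 cells just outside, with 2 Cebpe UMIs and otherwise within the rule, at 2325, 2244, 306 and 587 CPM. Nkg7 stood at 115, 154, 25.4 and 14.1 CPM inside and at 107, 127, 16.9 and 12.3 CPM outside. On the Elane side, the 135 members with 0.5 to 1% had Mpo at 3667, 2717, 1543 and 1575 CPM, and the 75 cells just outside with 1 to 1.5% had 4949, 3983, 2444 and 972 CPM. Mpo was thus higher outside the Elane limit in suffixes 1 to 3 and lower in suffix 4, which held only 7 of those 75 cells. Only 53 members had no Elane UMI, so low Elane means a reduced share and not its absence. Summed over the set, Elane stood at 3507, 4183, 2694 and 3821 CPM in suffixes 1 to 4, against 1759, 2682, 1440 and 1804 CPM in cells without a Cebpe UMI that met the same limits for Elane and for secondary granule genes. That class is called cells without Cebpe from here on, and both sides of this pair are bounded by the Elane limit.

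Depth was similar to that of other cells in suffixes 1 to 3. The median UMIs per cell were 6170, 6530, 5530.5 and 6876 in the set and 6087, 6433, 5306 and 5257 in the other kept cells. Cells of suffix 4 were thus deeper in the set, and a rule in whole UMIs selects deeper cells more readily. Median mitochondrial shares in the set were 2.34 to 2.69%. Barcode sequences were shared between suffixes 17 times in all and never by 2 members. Scrublet marked 27 of 5456 cells (0.495%) as doublets, a share too low for the caller to be taken as working, and 3 of them were members. No doublets were removed.

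The 2 proposed markers differed in how they set the cells apart. Nkg7, a granule membrane protein best known from cytotoxic lymphocytes, stood at 165, 197, 19.4 and 27.0 CPM in the set and at 105, 141, 14.9 and 3.28 CPM in the other kept cells. It was above them in all 4 suffixes, with a median log2 ratio of 0.57 (range 0.35 to 2.71), but missed 1.5-fold in some. In suffixes 3 and 4 the levels of the set rest on 11 UMIs in 7 cells and 17 UMIs in 9 cells. Without its highest cell the set stood at 14.3 CPM in suffix 3, under the other cells there. In suffix 4 it stood at 19.9 CPM without that cell. Mpo stood at 2410, 1958, 497 and 801 CPM against 2135, 2585, 440 and 416 CPM. Its log2 ratio ran from -0.40 in suffix 2 to 0.94 in suffix 4 with a median of 0.17, so Mpo did not mark the set against other cells.

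Against all other kept cells of the same suffix, few genes stood apart in every suffix. A gene is called higher or lower here where its summed CPM differed at least 1.5-fold in the same direction in all 4 suffixes, after 1 CPM was added to both sides. Of 6525 genes with a mean of at least 10 CPM, and without the 6 genes of the rule, 13 were higher (0.199%) and 47 were lower (0.72%), 60 in all (0.92%), and the median log2 ratio of all genes was -0.05. When the other cells were weighted to the depth of the members, 17 were higher, including all 13, and 46 were lower, including 39 of the 47. With a suffix left out the condition is easier to meet: 30 were higher and 94 lower without suffix 1, 25 and 80 without suffix 2, and 21 higher without suffix 4.

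Siglecf, a sialic acid-binding receptor known from eosinophils and alveolar macrophages, was 2.83-fold higher at the median. Its levels were 41.1, 30.7, 88.2 and 65.0 CPM, with exact Poisson 95% intervals of 28.8 to 56.8, 21.0 to 43.3, 65.4 to 116 and 46.7 to 88.2. The other kept cells had 14.6, 14.0, 19.97 and 21.2 CPM, and the 2 sets of intervals did not overlap within any suffix. Siglecf was higher in suffixes 3 and 4 than in suffixes 1 and 2 within the set. Cells with Elane of 1% or more and 3 or more Cebpe UMIs had 14.4, 22.6, 70.2 and 49.0 CPM, and cells without Cebpe had 13.9, 12.2, 15.4 and 19.4 CPM. The Elane-high class held only 21 and 15 cells in suffixes 3 and 4, so its levels there are less precise.

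Chst13, a Golgi sulfotransferase that modifies chondroitin, was also 2.83-fold higher at the median (log2 range 1.15 to 1.71). It stood at 70.7, 80.5, 45.8 and 58.7 CPM in the set and at 27.2, 23.9, 20.1 and 17.9 CPM in the other cells. The 2 groups did not overlap across any of the suffixes. Elane-high cells with Cebpe had 79.4, 62.5, 75.6 and 49.0 CPM of Chst13, above the set in suffixes 1 and 3 and below it in suffixes 2 and 4, and cells without Cebpe had 15.5, 13.4, 9.77 and 10.6 CPM. Both classes with 3 or more Cebpe UMIs thus lay above the cells without Cebpe in every suffix. Elane-high cells with fewer Cebpe UMIs were not set beside them for Chst13.

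Cd63, a tetraspanin of late endosomes and primary granule membranes, was higher as well. It reached 417, 662, 813 and 677 CPM against 264, 309, 254 and 215 CPM, a median log2 ratio of 1.37 (range 0.66 to 1.68). Levels were higher still in Elane-high cells with Cebpe, at 850, 966, 1015 and 1029 CPM, and stood at 143, 121, 95.01 and 94.7 CPM in cells without Cebpe. The set thus lay between those classes for Cd63 in each suffix.

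Gfi1, a zinc finger repressor required for neutrophil differentiation, was 1.75-fold higher at the median (log2 0.81). Its levels were 49.0, 50.8, 35.3 and 71.4 CPM against 26.7, 30.3, 20.4 and 21.8 CPM. Elane-high cells with Cebpe were above the set in every suffix, at 77.0, 70.5, 75.6 and 78.4 CPM of Gfi1. The remaining named genes were Gm1604a, a predicted gene, at 36.5 to 100.5 CPM (log2 1.06), B4galt6, a galactosyltransferase that makes lactosylceramide, at 41.1 to 74.5 CPM (log2 1.01), and Ampd2, an AMP deaminase, at 22.9 to 66.1 CPM (log2 0.86). Ampd2 was higher in suffixes 1 and 2 than in suffixes 3 and 4 within the set.

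Prg3, which encodes a homologue of eosinophil major basic protein, had the highest median ratio of the named genes (log2 2.18) but on uneven ground. It stood at 3.42, 4.79, 125 and 85.6 CPM against 1.48, 0.961, 8.86 and 11.5 CPM. The first 2 values rest on 3 and 5 UMIs, and the last 2 on 71 and 54 UMIs. The contrast was therefore carried by suffixes 3 and 4. A further 5 genes were higher but lay under the minimum of 20 CPM for naming, and were looked up after their values were seen: Vat1 (log2 1.76), Sec16b (1.27), Hipk2 (0.95), Ceacam1 (0.88) and Eml5 (0.84). Siglecf and Chst13 remained higher in each of 22 alternative settings, while Cd63 and Gfi1 remained so in 19, Gm1604a in 18, B4galt6 in 17, Prg3 in 16 and Ampd2 in 15.

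**Figure D2:**
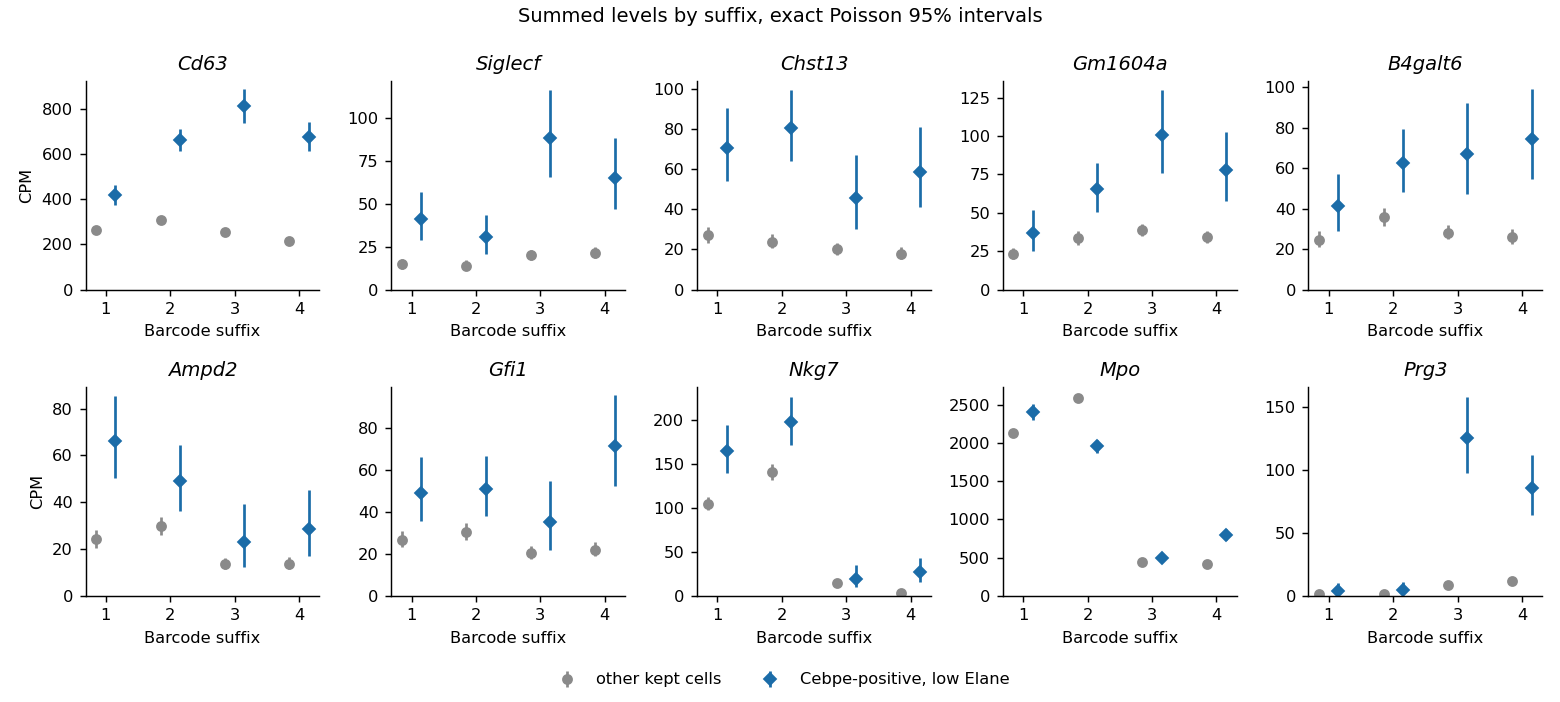
Summed level in CPM (y axis, from 0) by barcode suffix (x axis) for 8 genes called higher and for the proposed markers Nkg7 and Mpo. Blue diamonds are the Cebpe-positive low-Elane cells, grey circles the other kept cells, and bars are exact Poisson 95% intervals; blue lies above grey in every suffix except for Mpo in suffix 2.

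Promoter letters were counted in the higher and lower genes. Of the 13 higher genes, 12 had a promoter entry; 5 of these held the PU.1 letters (41.7%), 2 the MYB letters (16.7%) and 1 the C/EBP letters (8.33%). Among 5109 compared genes with an entry the shares were 27.0, 19.6 and 8.53%. Each gene was counted by 1 window, that with the lowest start position. The window counted for Gfi1 held no C/EBP match, while another window of Gfi1 held 1. Of the 47 lower genes, 39 had an entry, with 12 holding the PU.1 letters (30.8%), 11 the MYB letters (28.2%) and 6 the C/EBP letters (15.4%).

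The stefin A family members Gm5483, Stfa2l1, BC100530 and Stfa1, inhibitors of cysteine proteases, had median log2 ratios of -3.62, -3.10, -2.46 and -2.06. They are near-identical copies whose reads may be split between them, so their separate values are uncertain. Ltf, the secondary granule protein lactoferrin, was at 0 UMIs in suffixes 1 to 3 and 3.17 CPM in suffix 4, against 3.99, 4.94, 120 and 67.7 CPM. Taking 3 counts as the limit of a 0, Ltf was at least 22.8-fold lower in suffix 3. Chil3, a chitinase-like secreted protein, stood at 2.28, 3.83, 84.6 and 728 CPM against 13.003, 30.8, 1284 and 1873 CPM. The rule removes cells rich in late neutrophil genes, and these 6 genes moved with that choice. When cells with 1% or more secondary granule UMIs were also left out of the other cells, Chil3 stood at a log2 ratio of -0.77 and Ltf at -0.09, neither called, and Gm5483, Stfa2l1, BC100530 and Stfa1 turned to 0.86, 0.030, 2.01 and 2.15.

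Ctss and Ccr2, both on the monocyte list, were also lower. Ctss, the lysosomal protease cathepsin S, stood at 19.4, 29.7, 58.2 and 92.0 CPM against 56.4, 73.9, 304 and 302 CPM (log2 -1.60). Ccr2, the chemokine receptor of inflammatory monocytes, stood at 7.98, 12.5, 15.9 and 15.9 CPM against 18.5, 19.9, 63.6 and 64.9 CPM (log2 -1.53). The set was below the other cells in every suffix for both, and all levels of Ctss were higher in suffixes 3 and 4. Rnase6, a secreted ribonuclease, and Ms4a4c, a tetraspan membrane protein, had log2 ratios of -1.47 and -1.23.

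Prdx4, a peroxidase of the endoplasmic reticulum, stood at 13.7, 10.5, 21.2 and 41.2 CPM against 44.2, 43.9, 76.6 and 96.5 CPM (log2 -1.71). Ifi203, an interferon-inducible DNA-binding protein, stood at 19.4, 14.4, 15.9 and 14.3 CPM against 48.0, 41.9, 53.7 and 53.4 CPM (log2 -1.59). Ifi203 was even across suffixes in both groups, unlike most of the other lower genes. S100a6, a calcium-binding protein, stood at 5.70, 25.9, 81.1 and 41.2 CPM against 36.8, 52.3, 293 and 225 CPM (log2 -2.13). Ifi27l2a and Tmem109 completed the 15 lower genes named, at log2 ratios of -1.78 and -1.22. Prdx4, Ctss and Ifi203 remained lower in all 22 alternative settings, and S100a6 in 21.

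Gene lists were read next, by programme. Each is described by its calls and by its median log2 ratio, beside the median of -0.05 for all genes; each list keeps only genes with at least 10 CPM. Of 16 primary granule genes, 1 was higher (Cd63) and none lower, with a median of 0.14. Ctsg, a serine protease, stood at 4318, 4379, 1490 and 1862 CPM against 3632, 3821, 1303 and 1411 CPM. It lay above the other cells in every suffix without reaching 1.5-fold (log2 0.22). Serpinb1a, which inhibits these proteases, had 0.66, Srgn, the proteoglycan that packs granule proteins, 0.58, and Prss57 0.56, none of them called.

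Of 13 secondary and tertiary granule genes, none was higher and 2 were lower (Ltf and Chil3), with a median of 0.01. Hp (haptoglobin), Slpi and Anxa1 had log2 ratios of 0.43, 0.43 and 0.42, and Lcn2 (lipocalin 2) had -0.83, none called. Among 7 genes known to depend on C/EBP-epsilon, the same 2 were lower and none higher, with a median of -1.10. The rule keeps late neutrophil cells out of the set but not out of the other cells. Against cells without Cebpe, 1 of 6 genes of this list was higher (Lcn2) and none lower, with a median of 0.30.

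Among 18 granulocyte transcription factor genes, 1 was higher (Gfi1) and none lower, with a median near that of all genes. Myb, a regulator of progenitors, stood at 267, 258, 196 and 176 CPM against 187, 170, 111 and 109 CPM. It was above the other cells in every suffix with a log2 ratio of 0.64, short of the call. Irf8, which favours monocytes over granulocytes, had -0.62, Cebpa 0.25, Cebpb -0.22 and Spi1 (PU.1) 0.02, none called.

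Of 14 monocyte genes, 6 were lower (S100a4, Ctss, Ccr2, Ifitm3, Lgals3 and F13a1) and none higher. The list's median was -0.93, and by suffix it was -0.50, -0.61, -1.22 and -1.24. The gap was thus wider in suffixes 3 and 4, where the other cells held more of these transcripts. Ly6c2, a surface antigen of monocytes and of early granulocytes, went the other way without a call, at 2291, 3272, 3830 and 3599 CPM (log2 0.20).

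Progenitor and leukaemia lists were mixed. Flt3, a receptor tyrosine kinase of early progenitors, was lower at 58.2, 56.6, 35.3 and 74.5 CPM against 110, 93.6, 104 and 116 CPM (log2 -0.81). It was called in 14 of 22 alternative settings, and not with other cells weighted to the depth of the members, with median of ratios factors or without Prg2 and Prg3 or Cpa3 cells. Of 22 genes associated with MLL-AF9, Flt3 and Mef2c were lower (Mef2c log2 -0.79, called in 16 of 22 settings) and none higher, with a median of -0.16. Of 15 stem and progenitor genes, Gfi1 was higher and Flt3 lower, with a median of -0.01. Of 14 cytokine and growth factor receptors, Flt3 and Ccr2 were lower and none higher, with a median of -0.25.

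Cell cycle genes lay on the low side. Of 40 G2 and M phase genes, 2 were lower (Cenpf, a kinetochore protein, log2 -0.81, and Cdca3 -0.77) and none higher, with a median of -0.47 and suffix values of -0.51, -0.53, -0.63 and -0.25. Of 41 S phase genes none was called, with a median of -0.29. Basophil and mast cell genes had the highest list median, 0.74 over 5 genes with none called, and suffix 4 stood apart at -0.11. Hdc, the enzyme that makes histamine, had 0.97, Kit, the stem cell factor receptor, 0.75, Mcpt8, a basophil protease, 0.74, and Cpa3, a mast cell carboxypeptidase, 0.43. Mcpt8 in the set rested on 7 UMIs in suffix 3 and on 3 UMIs of a single cell in suffix 4. Cpa3 stood at 108 CPM in suffix 3, or 76.4 CPM without its highest cell, against 82.2 CPM in other cells. In suffix 4 Cpa3 stood at 49.2 against 53.2 CPM. Of 3 eosinophil genes 1 was higher (Prg3).

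Metabolic and stress lists lay near the median of all genes. None of 35 genes of protein folding in the endoplasmic reticulum was called (median 0.15), none of 17 glycolysis genes (0.12), none of 31 oxidative phosphorylation genes (-0.06), none of 12 p53 targets (0.01) and none of 13 genes of NADPH oxidase and phagocytosis (0.04). In 16 genes of HIF-1 and hypoxia 1 was lower, the lectin Lgals3, with a median of 0.12. In 16 interferon genes 1 was lower, Ifitm3 (median -0.19), and in 16 immediate early and handling stress genes 1 was lower, Klf2 (log2 -0.93, list median -0.11). None of 5 macrophage and dendritic genes was called (median -0.12).

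**Figure D3:**
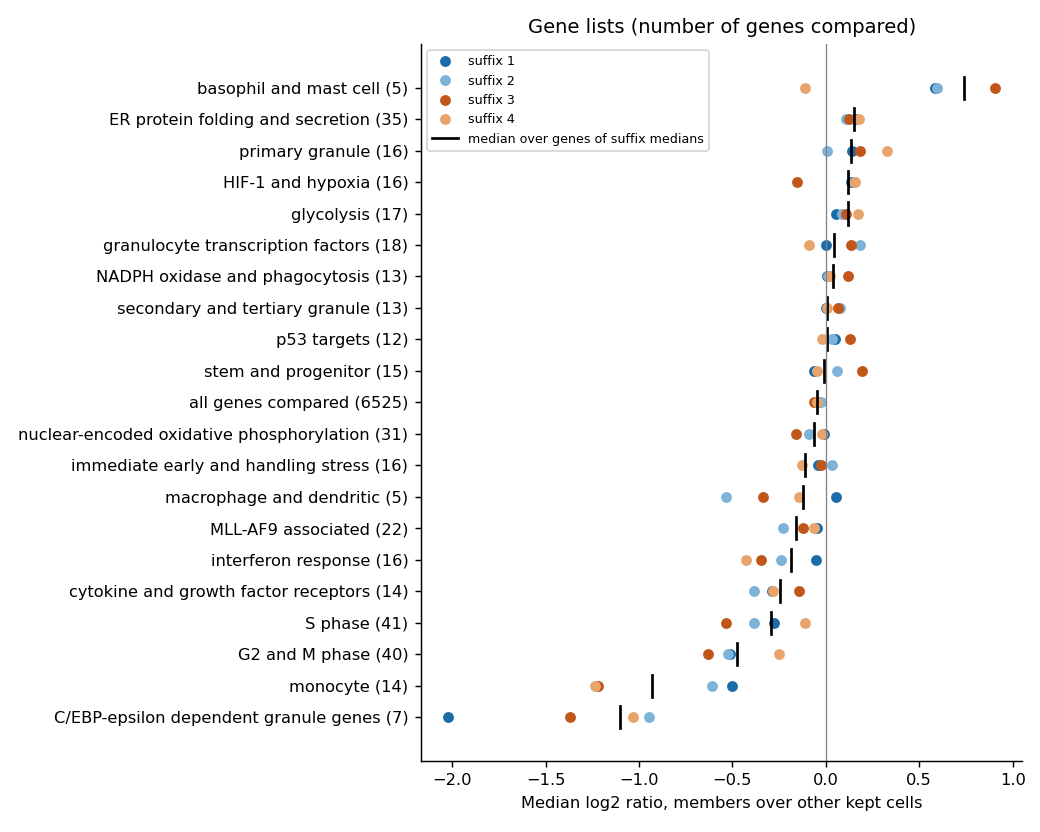
Median log2 ratio of Cebpe-positive low-Elane cells over other kept cells (x axis) for each gene list with at least 5 genes compared (y axis, number of genes in brackets). Points are the 4 suffixes and the black bar is the median over genes; the monocyte list lies left of 0 in all 4 suffixes, at -0.50 to -1.24, and the basophil and mast cell list right of 0 except in suffix 4.

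Elane-high cells with Cebpe differed from the set by rule only in the Elane limit. Cells with 1 or 2 Cebpe UMIs differed only in the Cebpe limit, and no comparison over all genes was made with them. The comparison with Elane-high cells was made in suffixes 1 and 2, since suffixes 3 and 4 held only 21 and 15 such cells, under the minimum of 30. Of 6384 genes, 238 were higher in the low-Elane set (3.73%) and 166 were lower (2.6%), 404 in all (6.33%), with an all-gene median of 0.07. A call here needed 1.5-fold in suffixes 1 and 2 only, so these shares cannot be set beside those from all 4 suffixes. Median UMIs were 6170 and 6530 in the set and 7744 and 7883 in the Elane-high cells. The part of this gap in depth in the calls was not tested.

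Of 16 primary granule genes, 4 were lower and none higher, with a list median of -0.23. Mpo stood at 2410 and 1958 CPM in suffixes 1 and 2 against 7146 and 5860 CPM (log2 -1.57), Prtn3 was lower by a log2 ratio of -1.09, and Cst7 and Srgn had -1.13 and -0.66. These are the 4 genes called, and the other 12 did not reach 1.5-fold in both suffixes. Nkg7 was lower as well, at 165 and 197 CPM against 503 and 529 CPM (log2 -1.51). The marker was therefore higher on the Elane-high side of the limit. The 2 classes were split by Elane itself, so the rule favours this direction for any gene whose level goes with Elane. The part of the split in these calls was not tested. Ms4a3, a membrane protein of granulocyte and monocyte progenitors, stood at 213 and 205 CPM against 1254 and 1085 CPM (log2 -2.47).

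The lowest ratio among the named genes was that of Mrgpra2b, a receptor of neutrophils, at 0 and 0.959 CPM against 62.6 and 50.5 CPM, at least 18.3-fold lower in suffix 1. Mgst2, a glutathione transferase, stood at 2.28 and 9.59 CPM against 89.1 and 65.2 CPM (log2 -3.71). Also lower were Wfdc21 (-5.10), Fcnb, a ficolin of granules (-3.29), Lect1 (-3.20), Clec4a2, a C-type lectin (-2.09), and Hsd11b1 (-1.96). Of 10 secondary and tertiary granule genes, 3 were lower and none higher (median -0.34).

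In the other direction, Cpa3 stood at 231 and 158 CPM against 12.03 and 16.0 CPM (log2 3.69). Bcl2, an inhibitor of apoptosis, stood at 160 and 108 CPM against 24.1 and 30.6 CPM (log2 2.24), and Irf8 at 372 and 264 CPM against 101 and 104 CPM (log2 1.60). These genes were several-fold apart in both suffixes. Cdkn1a, the cell cycle inhibitor p21, stood at 34.2 and 37.4 CPM against 9.63 and 9.31 CPM (log2 1.81). Adgrg1, an adhesion receptor of stem cells (2.14), Tpm4 (2.02), Cyp4f18 (1.96), Oaf (1.80) and Pld4 (1.76) were higher too. By list, 6 of 18 transcription factor genes were higher (Runx1, Irf8, Gata2, Id2, Etv6 and Nfe2; median 0.23), 6 of 14 stem and progenitor genes (median 0.63), 5 of 10 monocyte genes (median 1.01) and 3 of 5 basophil and mast cell genes (median 1.74), and none of these lists held a lower gene. By list median the monocyte genes of the set thus lay above the Elane-high cells in these suffixes, and below the other kept cells. Summed levels went the other way, since 9 monocyte markers that include Ly6c2 came to 3137 and 4002 CPM in the set and to 3875 and 4424 CPM in the Elane-high cells.

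The cells without Cebpe met every other limit of the rule and had no Cebpe UMI. Cells with 1% or more Elane or secondary granule UMIs were left out of them, whatever their Cebpe. There were 3108, with median UMIs of 5783, 5936.5, 4718 and 5085.5 in suffixes 1 to 4, shallower than the set in each suffix, and the part of depth was not tested. Of 6561 genes, 66 were higher in the set (1.01%) and 89 were lower (1.36%), 155 in all (2.36%), with an all-gene median of -0.08. Mogat2, an acyltransferase of glycerolipid synthesis, stood at 9.12, 16.3, 98.7 and 105 CPM in the set and at 0, 0.291, 3.77 and 3.35 CPM in the cells without Cebpe. It was at least 11.6-fold higher in suffix 1, where the cells without Cebpe had no Mogat2 UMI.

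Nkg7 passed the call here, with a median log2 ratio of 2.54 (range 2.20 to 4.002), whereas Mpo had 1.09 and did not. Rgcc, a regulator of the cell cycle, stood at 252, 280, 190 and 258 CPM against 90.5, 93.9, 43.0 and 41.0 CPM (log2 1.84). Some granule genes of both generations were higher. They were 4 of 16 primary granule genes, Cd63 (2.63), Serpinb1a (1.26), Prss57 (0.98) and Srgn (0.97), with a list median of 0.18, and 3 of 11 secondary and tertiary ones, Lcn2 (1.79), Pglyrp1, a peptidoglycan-binding protein (1.74), and Hp (0.82), with a list median of 0.50. No gene of either list was lower. Gfi1 (1.67), Myb (0.83), Clec4a2 (1.87), Chst13 (2.24), Prg3 (2.298) and Stfa1 (2.56) were higher too.

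Of 14 monocyte genes, 10 were lower and none higher, with a list median of -1.13. They were Csf1r, Ccr2, F13a1, Ms4a6c, S100a4, Lgals3, Ifitm3, Ctss, Psap and Irf5, and Ctss and Ccr2 had log2 ratios of -1.98 and -1.88. Of 40 G2 and M phase genes, 3 were lower (median -0.61), and the S phase list had a median of -0.36. Among single genes Ifi203 (-2.10), Ifi27l2a (-2.08), Kctd14 (-2.03) and Rnase6 (-1.81) had the lowest ratios beside S100a6 (-2.40) and Prdx4 (-2.06). The 3 comparisons use the same members, so their values are not independent of each other.

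Levels of several genes followed the number of Cebpe UMIs among cells with low Elane and few secondary granule transcripts. Cells were divided at 0, 1 to 2, 3, 4, and 5 or more Cebpe UMIs; each of the last 3 divisions held 18 to 61 cells per suffix, and 4 UMIs in suffix 3 was the smallest. Cd63 stood at 121, 239, 549, 551 and 842 CPM over these divisions in suffix 2, at 95.01, 288, 752, 805 and 906 CPM in suffix 3 and at 94.7, 236, 493, 566 and 1050 CPM in suffix 4. In suffix 1 it was less even, at 143, 282, 226, 578 and 466 CPM. Chst13 in suffix 2 stood at 13.4, 20.1, 48.0, 110 and 94.4 CPM. Both genes were thus already above the level of cells without Cebpe at 1 to 2 UMIs, under the limit of the rule.

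Siglecf differed, with little between 0 and 1 to 2 UMIs (12.2 and 14.9 CPM in suffix 2, 15.4 and 23.7 in suffix 3) and more from 3 UMIs on (43.0 and 76.3). At 4 and at 5 or more UMIs it stood at 44.5 and 44.4 CPM in suffix 1 (35.03 at 3), at 20.4 and 24.8 in suffix 2, at 105 and 95.9 in suffix 3, and at 37.8 and 69.3 in suffix 4 (77.4 at 3). The suffixes thus differed in how Siglecf went on beyond 3 UMIs. Among the lower genes, Ctss went from 398 over 228 to 54.5, 47.9 and 69.3 CPM in suffix 3 and from 367 over 255 to 137, 75.5 and 37.3 CPM in suffix 4. Prdx4 was at 112, 99.4, 52.8, 44.1 and 21.3 CPM in suffix 4 and at 57.2, 33.0, 12.7, 10.3 and 18.5 CPM in suffix 1. Flt3 was at 139, 101, 82.8, 51.3 and 37.0 CPM in suffix 1, at 121, 104, 58.2, 77.5 and 42.2 CPM in suffix 2 and at 141, 94.7, 73.9, 75.5 and 74.6 CPM in suffix 4. All 3 genes were lower at 3 UMIs than at 0 in the suffixes given, and their course from 3 UMIs on differed between suffixes.

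**Figure D4:**
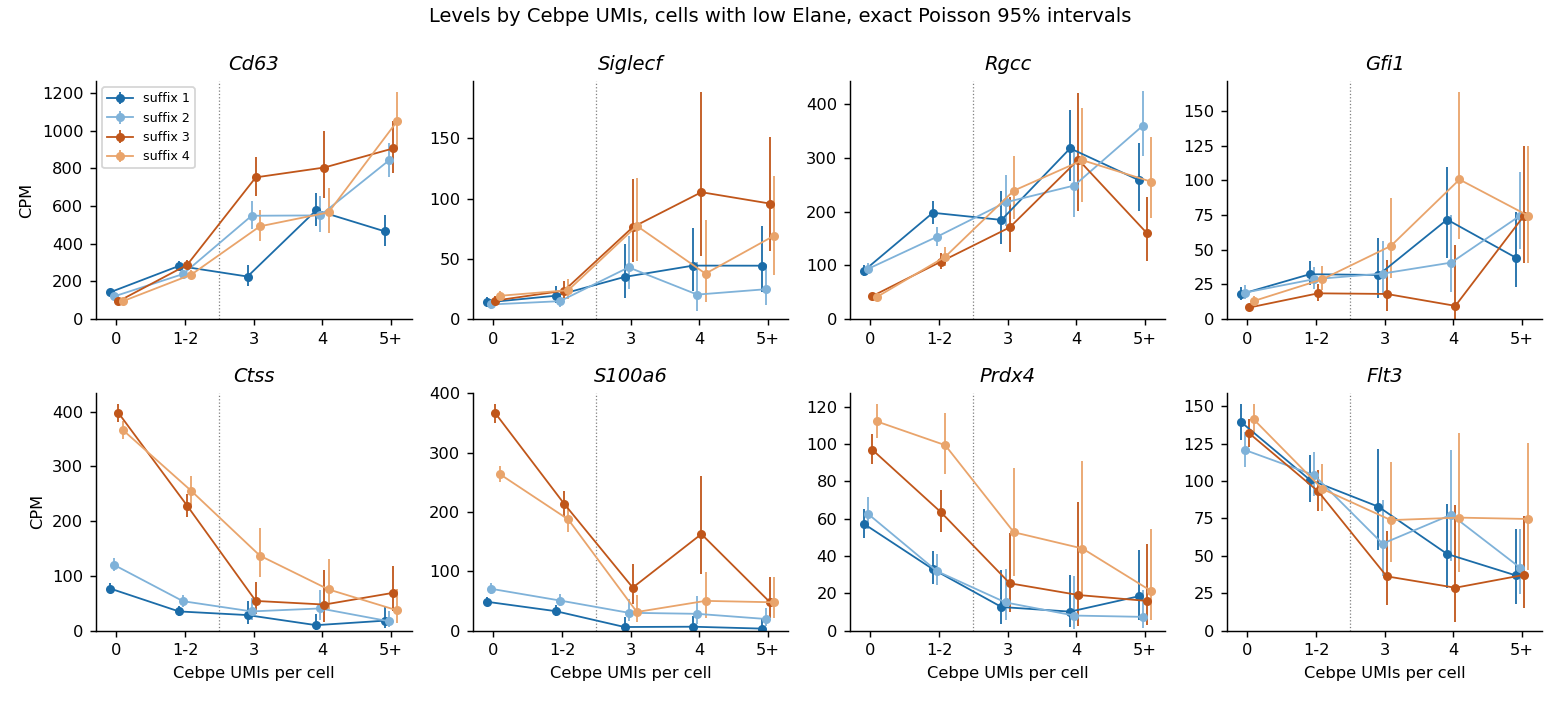
Level in CPM (y axis) by number of Cebpe UMIs per cell (x axis) in cells with low Elane, for 8 genes and 4 suffixes (lines), with a dotted line at the start of the set described. Cd63 stands at 94.7 to 143 CPM without Cebpe and at 466 to 1050 CPM with 5 or more Cebpe UMIs, and Ctss runs the opposite way.

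Within the set, other granule genes and mast cell genes differed with the share of Elane. Members were divided at 0.1 and 0.3% of UMIs from Elane; suffixes 3 and 4 had fewer than 20 cells in the middle range, which is left out there. Mpo stood at 1244, 2076 and 3292 CPM over the 3 ranges in suffix 1, at 926, 1713 and 2406 CPM in suffix 2, at 64.4 and 1254 CPM at the ends in suffix 3 and at 156 and 1276 CPM in suffix 4. Ctsg showed a small gap in suffix 1 (3985, 4290 and 4544 CPM) and a larger one in suffix 3 (905 and 2211 CPM). Ms4a3 stood at 159, 201 and 253 CPM in suffix 1, at 193, 103 and 250 CPM in suffix 2, at 7.15 and 148 CPM at the ends in suffix 3 and at 27.9 and 200 CPM in suffix 4. The 3 genes were higher from 0.3% than under 0.1% in every suffix, with Ms4a3 lowest in the middle in suffix 2.

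Nkg7 was lowest under 0.1% Elane in each suffix, at 91.9, 94.0, 14.3 and 0 CPM, and stood at 189, 217, 25.6 and 47.1 CPM in the range from 0.3%. Its highest level in suffixes 1 and 2 was in the middle range, at 232 and 236 CPM. In suffix 3 the 2 values rest on 4 and 5 UMIs, and their intervals overlapped (3.90 to 36.6 and 8.31 to 59.7 CPM). Members without an Elane UMI had Nkg7 at 208 CPM in suffix 1 (13 cells) and at 0 CPM in suffixes 2 to 4. Cpa3 ran against Elane, at 456, 157 and 113 CPM in suffix 1, at 450, 228 and 31.7 CPM in suffix 2, and at 215 and 162 CPM under 0.1% with no UMI from 0.3% in suffixes 3 and 4. Gata2, a transcription factor of progenitors, mast cells and basophils, stood at 45.9, 79.2, 64.4 and 33.5 CPM under 0.1% and at 18.4, 23.4, 10.2 and 11.1 CPM from 0.3%. Cells under 0.1% Elane were shallower, with median UMIs of 5831.5, 5024, 4230 and 5792 against 7049, 7256.5, 7192 and 8635 from 0.3%, and the part of depth in these differences was not tested. The set was therefore not uniform, and its end with the least Elane had the least Mpo and the most Cpa3 and Gata2.

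**Figure D5:**
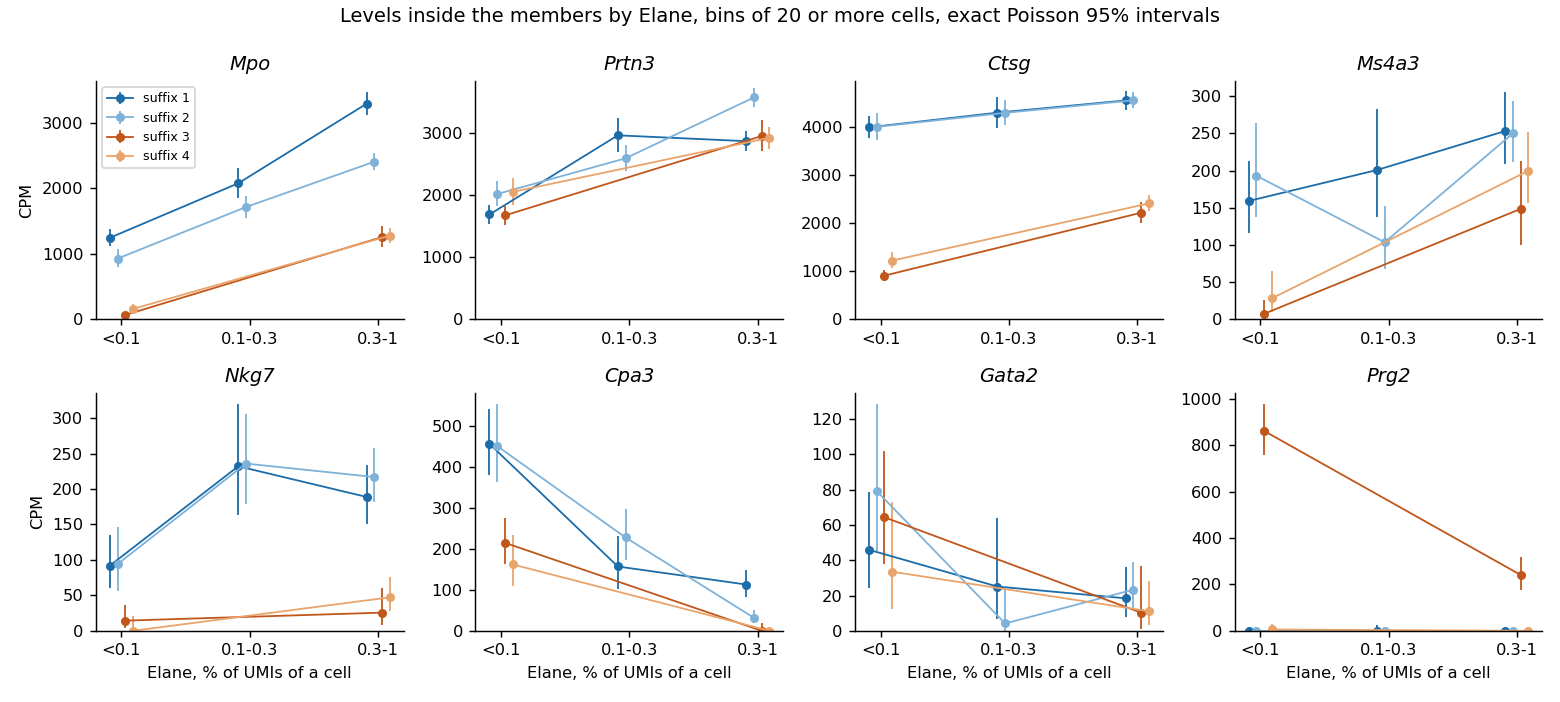
Level in CPM (y axis) inside the Cebpe-positive low-Elane set by share of UMIs from Elane (x axis, ranges with at least 20 cells), for 8 genes and 4 suffixes. Mpo is lowest and Cpa3 highest under 0.1% Elane in each suffix; Prg2 is seen in suffix 3, at 862 CPM under 0.1% and 241 CPM from 0.3%.

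Small subsets with eosinophil or mast cell transcripts lay inside the set; they were chosen after their values were seen. Prg2 and Prg3, the major basic protein genes of eosinophil granules, together reached 3 UMIs in 0 of 127 cells of suffix 1 (which allows up to 2.36%), 0 of 155 of suffix 2 (up to 1.94%), 11 of 92 of suffix 3 (11.96%, 6.12 to 20.4) and 10 of 83 of suffix 4 (12.05%, 5.93 to 21.0). Over all suffixes this was 21 of 457 cells (4.60%, 2.87 to 6.94; median 6308 UMIs), beside 23 of 4999 other kept cells (0.460%; median 5700 UMIs) and 3 of 3108 cells without Cebpe (0.0965%; median 5223.5 UMIs). Such cells were thus 21 in the set and 23 outside it, and those in the set came from suffixes 3 and 4. Prg2 had 294 UMIs in 10 cells of suffix 3 (518 CPM), of which 114 lay in a single cell, and 323 CPM without that cell. In suffix 4 it had 1 UMI, and in suffixes 1 and 2 none. Prg3 was seen in 15 and 13 cells of suffixes 3 and 4. The eosinophil markers Epx, Ear1 and Il5ra were at 0 in the whole set.

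Cpa3 reached 3 UMIs in 22 cells of suffix 1 (17.3%), 17 of suffix 2 (11.0%), 7 of suffix 3 (7.61%) and 3 of suffix 4 (3.61%), 49 in all (10.7%, 8.04 to 13.9). In other kept cells the shares were 12.3, 6.57, 4.50 and 3.70% in suffixes 1 to 4, and in cells without Cebpe 14.2, 8.39, 5.09 and 4.57%. The share was thus above both in suffixes 1 to 3 and slightly below both in suffix 4. Cpa3 reached 3 UMIs in 1 of 185 Elane-high cells with Cebpe (0.541%) and 0 of 303 cells rich in secondary granule genes (which allows up to 0.990%). No member passed both limits (0 of 457, which allows up to 0.656%). In suffix 1 the 22 cells with Cpa3 had Cd63 at 887 CPM, Siglecf at 67.7, Chst13 at 156, Mcpt8 at 318 and Gata2 at 74.4 CPM, and the 105 members with neither transcript had 322, 35.7, 53.5, 177 and 19.2 CPM. The Cpa3 cells also had less Elane (1550 against 3903 CPM), less Mpo (1469 against 2600 CPM) and less Ms4a3 (81.2 against 240 CPM).

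The higher genes were also counted without these subsets. In members with neither transcript, Siglecf stood at 35.7, 32.0, 83.8 and 60.8 CPM, Chst13 at 53.5, 75.8, 44.0 and 60.8 CPM and Gfi1 at 41.1, 50.1, 25.1 and 70.0 CPM. Siglecf and Chst13 thereby stayed above the other kept cells in every suffix. With cells of 3 or more Prg2 and Prg3 UMIs left out on both sides, 12 genes were higher, 10 of them among the 13, and 46 lower, and Gfi1 and Prg3 were then not called. With Cpa3 cells left out, 13 were higher, 9 of them shared, and 44 lower, and B4galt6 and Cd63 were then not called, with Cd63 at 322, 615, 732 and 556 CPM in members with neither transcript. Cpa3 cells outside the set had Siglecf at 31.3, 47.7, 37.9 and 41.2 CPM and Cd63 at 468, 640, 514 and 298 CPM.

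Marker lists of other lineages gave the setting of the set. A list of 7 granulocyte precursor genes summed to 4468 to 9841 CPM over the 4 suffixes, beside 3954 to 10064 CPM in other kept cells. The 5 neutrophil markers summed to 36.5 to 225 CPM against 57.3 to 791, the 9 monocyte markers to 3137 to 5004 against 3208 to 5165, and the 6 macrophage markers to 162 to 300 CPM. The 6 basophil and mast cell markers reached 82.5 to 486 CPM with Fcer1a at 0, and the 6 eosinophil markers 3.42 to 644 CPM. Stem and progenitor markers summed to 208 to 389 CPM with Hlf at 0. T and NK (0 to 1.14 CPM, with Cd3e, Cd3d, Gzma and Ncr1 at 0), megakaryocyte (1.76 to 6.34 CPM, with Pf4 and Ppbp at 0) and dendritic markers (0 to 3.53 CPM, with Siglech at 0) were at or near 0. The part of the monocyte, mast cell and eosinophil transcripts in the differences above was not tested beyond the subsets left out.

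The cells did not form a separate group among all cells. In each suffix, 15 nearest neighbours were found for every cell from 30 principal components, built without the genes of the rule. Of the neighbours of members, 26.7, 29.4, 21.4 and 17.7% were members in suffixes 1 to 4, where members were 10.8, 12.4, 5.66 and 5.90% of kept cells. Cells with 1 or 2 Cebpe UMIs made up 33.5, 27.2, 35.1 and 23.7% of the neighbours, against 22.8, 22.7, 17.8 and 16.5% of kept cells. Cells without Cebpe made up 27.8, 22.3, 31.0 and 41.2%, and Elane-high cells with Cebpe 4.25, 10.5, 3.41 and 5.70%. Most neighbours in each suffix were therefore outside the set, and cells with 1 or 2 Cebpe UMIs outnumbered members among them in suffixes 1, 3 and 4.

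Depth also bears on the rule itself. When each cell was reduced at random to 2000 UMIs, which 5342 cells allowed, 114 kept cells lay under that depth and 3 of these were members. The same rule then found 85 cells. The count of 457 is thus the number that reaches 3 Cebpe UMIs at the depth of these libraries. Cells with 1 or 2 Cebpe UMIs were about as deep as members before reduction, with medians of 5860, 6457.5, 6003 and 6126.5 UMIs. After it, Cebpe was still seen in 42.0, 42.8, 35.1 and 46.1% of them, against 72.2, 80.6, 84.4 and 75.9% of members. Members were chosen for more Cebpe UMIs, so the rule itself fixes the direction of this difference.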

How the data were processed

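Libraries were 10x Chromium 3' V2, per the labels' protocols. Reads were processed with Cell Ranger 1.3 against mm10, and Seurat 2.3.4 is named for later steps, per the submitters' processing notes. The deposited table holds UMI counts for 27998 genes and 5664 barcodes, with no normalization by the authors. Barcodes have 1189 or more UMIs.

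UMIs were summed over members and over other kept cells of the same suffix and scaled to CPM; ratios are on the log2 scale with 1 CPM added to both sides, and a gene's value is the median over suffixes. Genes needed a mean of 10 CPM, and a suffix 30 cells on both sides. Named genes are the 15 with the highest and the 15 with the lowest ratio among calls with at least 20 CPM on the mean of both sides (8 each way in the other 2 comparisons), of which some are left out, and genes of the lists. Intervals are exact at 95% and cover counting error only. Cells are not replicates, so nothing was tested. The members and lists were chosen with earlier results of these data known. Python 3.11.15, scanpy 1.11.5 (2000 variable genes) and scipy 1.17.1 were used, and the comparison was tested on simulated data. Planned tests between genotypes and treatments were not made. Promoters are from RefSeq and gene positions from GRCm38.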

Additional observations from a re-analysis of the deposited data

How the results depend on the processing

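Under the alternatives run, the share of kept cells in the set, 8.38% as reported, was 14.2% with at least 2 Cebpe UMIs, 2.79% with at least 5, 7.28% with Cebpe at 0.05% of UMIs or more, 5.90% with Elane below 0.5%, 10.5% with Elane below 2% and 1.59% for the rule on cells reduced to 2000 UMIs, and 7.18 to 9.53% with 1 suffix left out. The 13 higher genes became 8 with at least 2 Cebpe UMIs, 43 with at least 5, 47 at 0.05% of UMIs, 22 with Elane below 2%, 4 with 10 CPM added, 20 with a mean of per-cell CPM, 20 with median of ratios factors and 33 after reduction to 2000 UMIs, and 15 to 30 with 1 suffix left out. The 47 lower genes became 109 with at least 5 Cebpe UMIs, 117 at 0.05% of UMIs, 27 with Elane below 0.5%, 20 with 10 CPM added, 179 without the filter on low counts (more genes compared) and 97 after reduction, and 58 to 94 with 1 suffix left out (fewer suffixes to satisfy). With at least 5 Cebpe UMIs, suffix 4 held only 24 members, under the minimum of 30. It was therefore left out of the 43 higher and 109 lower genes, which also had fewer suffixes to satisfy. The direction turned for the MLL-AF9 list (0.037) and the receptor list (0.031) at 0.05% of UMIs, for the NADPH oxidase list with at least 2 Cebpe UMIs (-0.0074) and after reduction (-0.032), and for Gm5483 (0.86), Stfa2l1 (0.030), BC100530 (2.01) and Stfa1 (2.15) when secondary granule cells left the other side. Except where stated, the cause was not tested. Of the remaining values, 3045 stayed between the lowest and highest suffix values of the setting reported and 269 lay outside them. Direction was checked only for called genes and for lists with the same sign in all 4 suffixes. A value whose suffixes differed in sign could change sign and still count among the 3045. Leaving out Prg2 and Prg3 cells, Cpa3 cells or cells over 2 times the median UMIs was chosen after seeing the data and gave 12 to 14 higher and 44 to 62 lower genes. No paired analysis was possible because the 4 groups hold 1 sample each and the suffixes carry no sample.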
